A study of Mus musculus with 2 samples.

Results

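The mouse miRNAs numbered miR-6335 to miR-6420 and miR-8090 to miR-8120 were followed in exosomes of LLC cells. They were taken from the array by name alone, by the number after miR with any letter or arm, which gave 120 of the 1881 mouse miRNAs measured. The first range held 89 of them and the second 31. Few were detected, a share close to that of the whole array, and still fewer were bright. On both arrays 12 of the 120 were detected, or 10%, against 11.5% of the 1881. Among the 120, miR-6366 alone carried 74.2% and 82.2% of the summed signal, and 103 were detected on neither array.

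LLC is a cell line of mouse Lewis lung carcinoma. Exosomes, small membrane vesicles released by cells, were collected by ultracentrifugation from the supernatant of LLC cells kept in serum freed of exosomes. The RNA of 2 independent experiments was hybridized with Cy3 to 2 Agilent mouse miRNA arrays, here called replicate 1 and replicate 2, and the arrays used here hold no control sample and no LLC cell RNA. What is in the vesicles, what is carried along with them and what remains of the serum cannot be told apart, and less of a miRNA cannot be told from fewer vesicles. The labels describe RNA purification for blood with globin removal and cRNA labelling, and the paper names a miRNeasy kit for its PCR; which was used for the arrays is not settled by these sources.

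A miRNA is a short RNA that is cut from a hairpin and guides Argonaute proteins to messenger RNAs, mostly through its seed, the stretch of bases near its 5′ end. The number in the name records the order of registration, so neighbours in number were listed together and need not share a sequence, a locus or a target. High numbers belong to late entries of the registry, many of which were read from small RNA sequencing and have no well known function. No role in lung tumour cells is given here for any of the 120. The paper screened for miRNAs that could target Nfkbid, the gene of an NF-κB inhibitor, and measured a few of them in the exosomes by PCR. Its list of PCR primers includes miR-8095.

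The mature sequences of the 12 miRNAs detected on both arrays are printed because the results turn on them, in the order of their level. They are taken from RefSeq on the assembly GRCm38.p6, 5′ to 3′, and capitals mark the seed, bases 2 to 8.
miR-6366: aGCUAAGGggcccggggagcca
miR-8110: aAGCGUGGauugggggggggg
miR-6368: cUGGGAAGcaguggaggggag
miR-6348: uCAGCCUUuauaaggugugugu
miR-8101: gGCGAGCGgagccggaggagcc
miR-8095: aAAGGAUUcugcugucuguccc
miR-8102: uCACGCGGgggaacgaggaaga
miR-8117: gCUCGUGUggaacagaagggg
miR-6385: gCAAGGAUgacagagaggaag
miR-8103: uCUCCUGUucucuguucuccc
miR-6402: gAGCAGUUuucccaggaacccgc
miR-6418-5p: uCAGGGGAagggaagagaugc

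The 12 sequences have 12 different seeds. The brightest, miR-6366, lies at chr16:18165093-18165114 on the minus strand, and miR-8110 lies at chr8:89024791-89024811 on the plus strand, neither within a gene of the annotation. miR-8102, at chr11:97744974-97744995 on the plus strand, also lies outside annotated genes. Long non-coding RNA genes span 3 of them, 2610307P16Rik for miR-6368 at chr13:28710796-28710816 on the minus strand, Gm39696 for miR-6348 at chr1:168490740-168490761 on the plus strand and Gm40301 for miR-8117 at chr5:50252823-50252843 on the plus strand. The other 6 lie inside protein-coding genes. Of these, miR-8101 sits in Hdac5, a histone deacetylase, at chr11:102230103-102230124 on the minus strand, and miR-8095 in Dgkg, a diacylglycerol kinase, at chr16:22532128-22532149 on the minus strand. miR-8103 sits in Osbpl7, a gene of the oxysterol-binding protein family, at chr11:97063829-97063849 on the plus strand. miR-6402 sits in Elavl2, which encodes an RNA-binding protein of neurons, at chr4:91373285-91373307 on the minus strand. miR-6418-5p sits in Gnb2, a beta subunit of G proteins, at chr5:137529551-137529571 on the minus strand. These 5 run along the strand of their host, whereas miR-6385 at chr9:58221155-58221175 runs opposite to Pml, the gene of the nuclear body protein PML.

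Detection was near the level of the whole array. Feature Extraction, the scanner software, calls a miRNA detected when any of its probes has a total signal above 3 times its error. In replicate 1 it called 16 of the 120, or 13.3%, against 13.5% of all miRNAs on the array. In replicate 2 it called 13, or 10.8%, against 11.9%. On both arrays it called 12, or 10%, against 11.5%, so the share among the 120 was close to the background and is no result about them. Under a stricter call, which asked that 50% or more of a probe's spots be well above background on both arrays, 9 passed, or 7.5%, against 7.07% of the array. Under a looser call, with those spots positive and significant, 28 passed, or 23.3%, against 25.4%. These 28 were the 12, the 5 detected on 1 array and 11 of the 103 detected on neither.

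Within the set, the shares differed by number range. On both arrays 6 of the 89 miRNAs of miR-6335 to miR-6420 were detected, or 6.74%, and 6 of the 31 of miR-8090 to miR-8120, or 19.4%. The later range also had the higher share under the stricter call, 16.1% against 4.49%, and under the looser call, 41.9% against 16.9%. For the range miR-3057 to miR-3112 the share detected on both arrays was 10.9% of 110, and for miR-5097 to miR-5136 it was 28.9% of 38. These shares are descriptions of 2 arrays, and the differences between ranges were not tested.

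**Figure D1:**
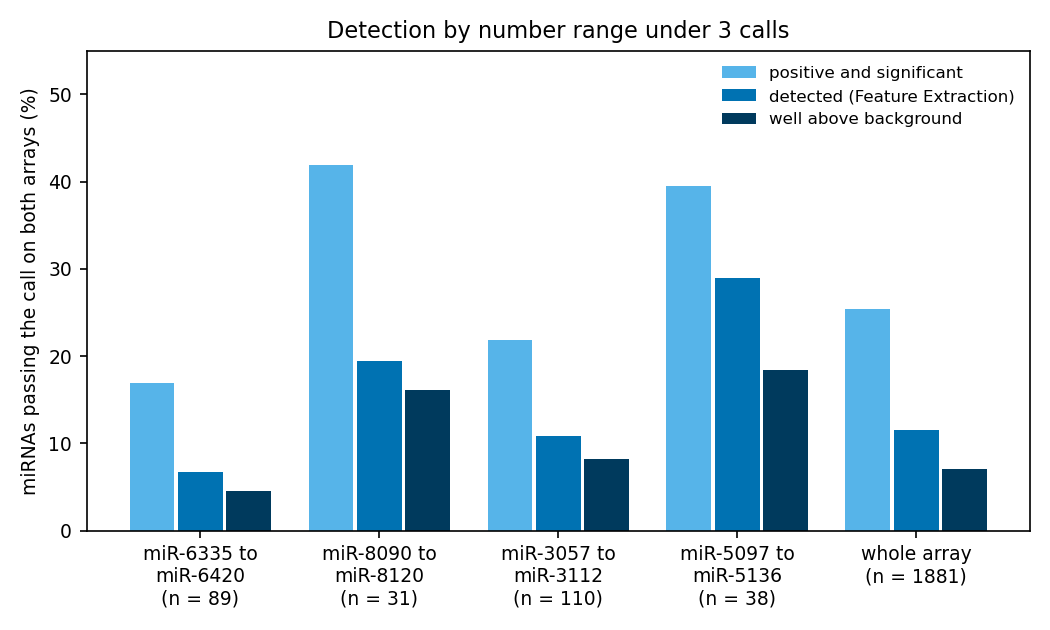
Share of miRNAs passing each of 3 calls on both arrays, in percent, for the 2 ranges described here, 2 other number ranges and the whole array (n, miRNAs in each). Bars of miR-8090 to miR-8120 stand above the whole array under all 3 calls, and bars of miR-6335 to miR-6420 below it.

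The miRNAs detected on both arrays were miR-6348, miR-6366, miR-6368, miR-6385, miR-6402 and miR-6418-5p of the first range and miR-8095, miR-8101, miR-8102, miR-8103, miR-8110 and miR-8117 of the second. In replicate 1 alone 4 were detected, miR-8090, miR-8093, miR-8105 and miR-8109, all of the second range. In replicate 2 alone only miR-6360 was detected. The whole array leaned the same way, with 253 miRNAs detected in replicate 1, 223 in replicate 2 and 216 on both.

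The intensities below are background-subtracted fluorescence in arbitrary units, averaged over the spots of each probe and then over the probes of a miRNA. To set the arrays side by side, a level was computed as the log2 of each signal over the 75th percentile of its array, which was 50.2 in replicate 1 and 39.95 in replicate 2 over the 393 probes detected on both. A level of 0 is thus a signal at that percentile, and levels are given as mean ± SD (n = 2 arrays). Probes for different miRNAs bind with different strength, so the order below ranks signal and not copies of RNA.

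miR-6366 had the highest signal of all 1881 miRNAs in each replicate, by intensity and by level. In the log2 table that the authors deposited it ranked 1 in replicate 1, at 13.25, and 2 in replicate 2, at 11.74. Both columns of that table hold the same sorted values, so each value there follows from the rank alone. The intensity of miR-6366 was 5014 in replicate 1 and 4507 in replicate 2, and its level was 6.62 ± 0.12. The brighter probe read 6886 and 6195 and the other 3142 and 2819, in the order of the replicates. Over its 14 or 15 spots each probe varied little, with an SD of 104.5 and 135.0 for the brighter probe and 47.8 and 41.7 for the dimmer, so the gap between the probes was far above the spread of spots. No spot of the 120 miRNAs was saturated (0 on either array).

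miR-8110 came next and ranked 9 of the 216. Its intensity was 1188 in replicate 1 and 509.7 in replicate 2, with a level of 4.12 ± 0.63. Both probes showed the drop, from 1127 to 466.9 and from 1249 to 552.4. It held 17.6% of the signal summed over the 120 in replicate 1 and 9.30% in replicate 2.

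A gap followed. miR-6368 ranked 22, with an intensity of 117.9 in replicate 1 and 82.7 in replicate 2 and a level of 1.13 ± 0.13. miR-6348 ranked 27, with 86.6 and 85.8 and a level of 0.93 ± 0.23. These 2 were not separated, since miR-6368 was the brighter in replicate 1 and miR-6348 in replicate 2. They are the last with a mean level above 0, of which there were 4.

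The other 8 lay on average below the 75th percentile of the probes detected on both arrays. miR-8101 had an intensity of 53.0 in replicate 1 and 35.9 in replicate 2, with a level of -0.05 ± 0.17. miR-8095 had 32.7 and 33.4, with a level of -0.45 ± 0.25, and is the member whose intensity differed least between the arrays beside miR-6348. miR-8102 had 37.2 and 41.6, with a level of -0.47 ± 0.35. Their ranks were 44, 55 and 56, and the levels of miR-8095 and miR-8102 differed by less than the SD of either.

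Of the 5 lowest, miR-8117 and miR-6385 had the wider spread between the arrays. miR-8117 had 15.95 and 26.2, with a level of -1.20 ± 0.76, the widest SD of the 12. miR-6385 had 23.3 and 12.2, with a level of -1.45 ± 0.47, so these 2 changed places between the arrays. miR-8103 had 11.6 and 10.66 and a level of -2.05 ± 0.14. miR-6402, at -2.13 ± 0.18, and miR-6418-5p, with 16.4 and 12.95 and a level of -2.18 ± 0.09, closed the list with ranks of 164 and 171, and the gap of either to miR-8103 was smaller than the SD of miR-8103.

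**Figure D2:**
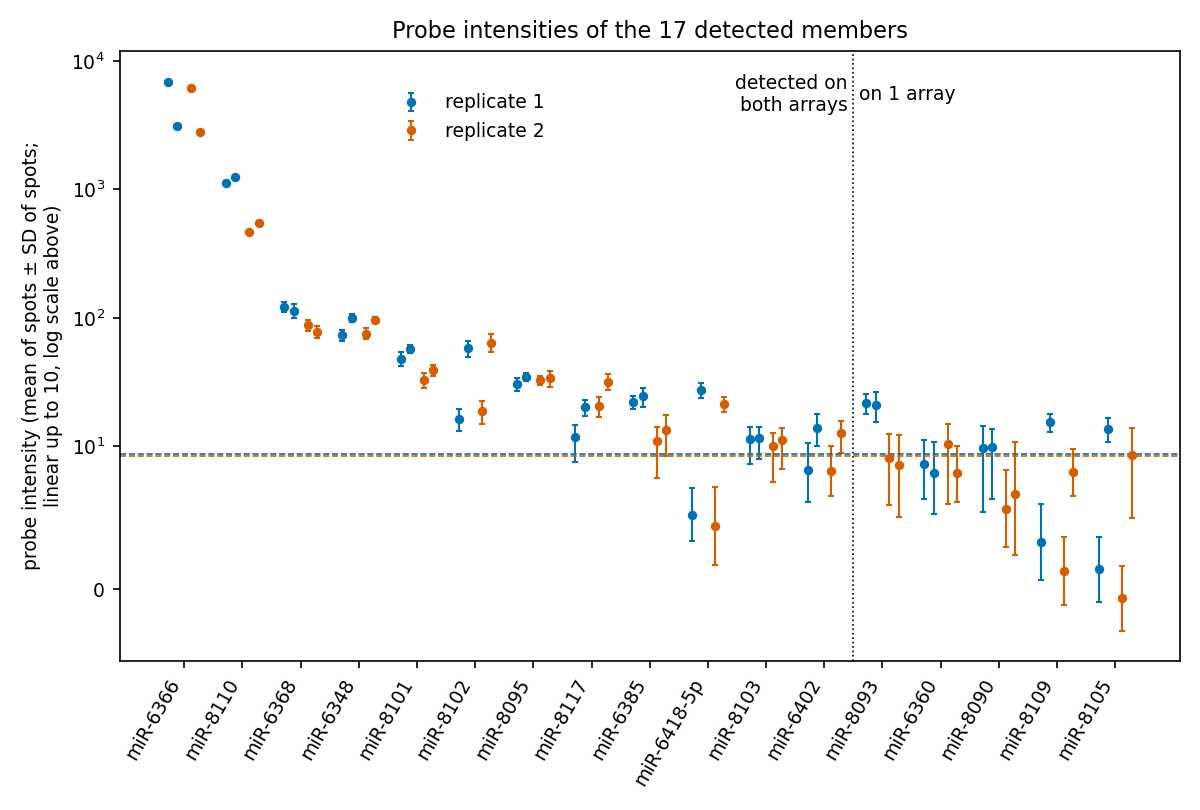
Intensity of each probe (mean ± SD over its spots, arbitrary units, linear up to 10 and logarithmic above) of the 17 miRNAs detected on at least 1 array. Those detected on both arrays come first and those detected on 1 array follow a dotted line, each part ordered by mean intensity. Replicate 1 is in blue and replicate 2 in orange. Dashed lines mark the highest negative control spot of each array, 9.45 and 9.35. miR-6366 and miR-8110 stand above the rest by intensity, and the probes of miR-8110 are lower in replicate 2.

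The signal of the set was thus that of a few miRNAs. The 3 brightest, miR-6366, miR-8110 and miR-6368, held 93.5% of the signal summed over the 120 in replicate 1 and 93.0% in replicate 2, values at or below 0 counted as 0. The 103 miRNAs detected on neither array held 1.40% and 1.48% together. Within the array as a whole, the 120 held 23.1% of the summed signal in replicate 1 and 20.9% in replicate 2, most of it from miR-6366. The 3 brightest of all miRNAs on the array held 34.1% and 40.4% of that signal, in the order of the replicates.

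Of the 5 miRNAs detected on 1 array, miR-8090 and miR-6360 stood at the edge of the call. miR-8093 was clear of it in replicate 1 and just under it in replicate 2. In replicate 1 its probes read 21.8 and 21.0, at 5.85 and 5.68 times their error. In replicate 2 they read 9.15 and 8.66, at 2.86 and 2.72 times their error. Both of its probes were thus called in replicate 1 and neither in replicate 2. miR-8090 read 9.87 and 9.99 in replicate 1, at 3.10 and 3.15 times its error, and 5.64 and 6.63 in replicate 2. miR-6360 read 8.78 and 8.10 in replicate 1 and 10.4 and 8.12 in replicate 2, and passed there with 1 probe at 3.21 times its error.

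miR-8105 and miR-8109 were called on a single probe each, at 4.15 and 4.58 times its error in replicate 1. In replicate 1 the probes of miR-8105 read 13.7 ± 2.85 and 1.38 ± 2.31 (SD, n = 15 spots), and in replicate 2 they read 9.40 and -0.64. The probes of miR-8109 read 15.5 ± 2.43 and 3.33 ± 2.66 (SD, n = 15 spots) in replicate 1, and 8.19 and 1.25 in replicate 2. In both miRNAs the same probe was the higher on each array, and the other lay within the range of the undetected miRNAs.

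The 103 miRNAs detected on neither array had low signals, most of them around 0. Their 217 probes ran from -2.83 to 8.38 in replicate 1, with a median of -0.15, and from -3.70 to 7.69 in replicate 2, with a median of -0.30. At or below 0 were 115 and 130 of the probes. The negative control spots had a mean of 0.57 ± 2.48 (SD, 986 spots) in replicate 1 and 0.76 ± 2.72 (SD, 995 spots) in replicate 2, and 73 and 71 of the 217 probes had a mean above that of the controls. No probe reached 3 times its error, the highest being 2.69 and 2.44 times. At this signal a miRNA among them may be absent or below what the array can measure, and the values do not tell which.

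Just outside the call, the 5 highest were miR-6399, miR-6370, miR-6352, miR-6409 and miR-6401. Their intensities were 5.65 and 7.33 for miR-6399, 6.44 and 5.89 for miR-6370, and 6.52 and 5.92 for miR-6352, in the order of the replicates. For miR-6409 they were 7.38 and 6.19, and for miR-6401 they were 7.34 and 3.61. Just inside it were miR-8103 and miR-6402, the latter at 11.2 and 10.5, a little above them.

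**Figure D3:**
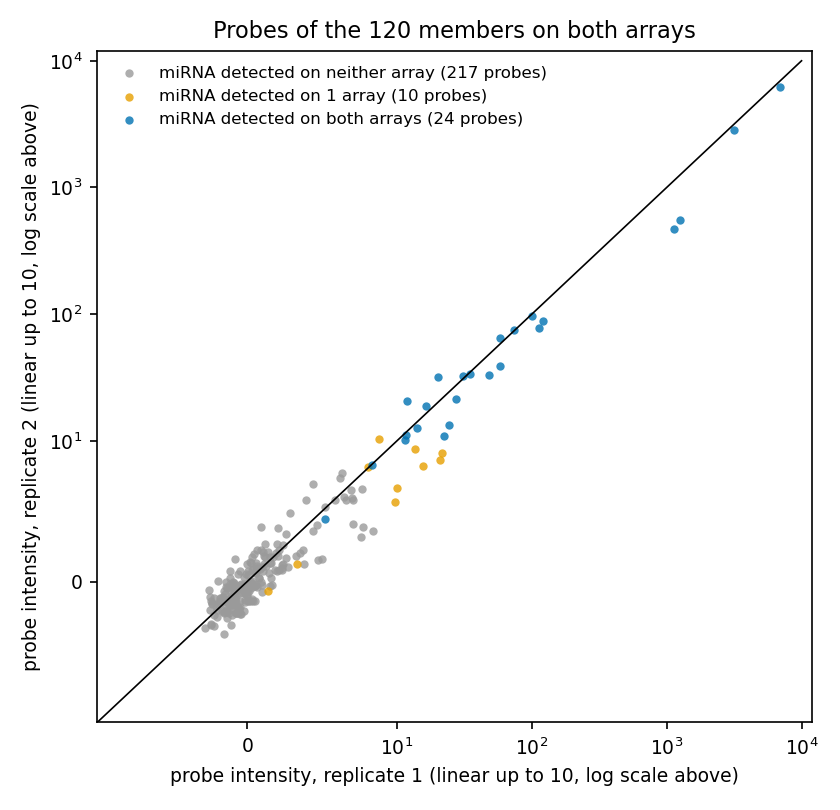
Intensity of all 251 probes of the 120 miRNAs in replicate 1 (horizontal) and replicate 2 (vertical), in arbitrary units, linear up to 10 and logarithmic above, with the line of equal intensity. The 217 probes of miRNAs detected on neither array (grey) gather around 0, and the pair far below the line at the upper right is miR-8110.

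Between the arrays the detected members differed by about as much as the other detected miRNAs. Over the 12, the median of the level of replicate 2 minus that of replicate 1 was 0.19 on the log2 scale, against 0.21 over all 216 miRNAs detected on both arrays, with 7 higher in replicate 2 and 5 lower. The sign of this median depended on the scaling, as the unscaled intensities gave -0.14. The median size of the difference was 0.29, against 0.35 over the 216. In level only miR-8117 moved by more than 1 log2 unit, and 29 of the 216 did so. In unscaled intensity it was miR-8110 alone, at -1.22, and miR-8117 moved by 0.72, so the scaling decided which member passed.

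In level, both probes moved in the same direction between the arrays in 12 of the 12. In unscaled intensity they did so in 10, the exceptions being miR-6348, with ratios of replicate 2 over replicate 1 of 1.03 and 0.963, and miR-8095, with 1.07 and 0.976. The same probe was the higher on both arrays in all 12. The intensity of miR-8110 in replicate 2 over that in replicate 1 was 0.414 ± 0.0037 with 1 probe and 0.442 ± 0.0031 with the other (SE from spots). For miR-8117 the ratios were 1.74 ± 0.13 and 1.59 ± 0.081, and for miR-6385 they were 0.495 ± 0.042 and 0.547 ± 0.049. For miR-6366 they were 0.8997 ± 0.0062 and 0.897 ± 0.0050. For miR-6368 they were 0.717 ± 0.024 and 0.684 ± 0.029, and for miR-8101 they were 0.681 ± 0.032 and 0.675 ± 0.023. Each of these 6 miRNAs lay more than its SE away from a ratio of 1 with both probes. So did miR-8102, at 1.14 ± 0.083 and 1.11 ± 0.063. These ratios are unscaled, and the 75th percentile was 50.2 in replicate 1 and 39.95 in replicate 2. A ratio of 1 is therefore not the mark of an equal level. The level of miR-6366, for example, was 0.17 higher in replicate 2. The SE covers the spots of these arrays and not the variation between experiments, of which there were 2.

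Probes of the same miRNA mostly read alike. Of the 120 miRNAs, 110 had 2 probes, 9 had 3 and 1 had 4, and each of the 12 detected on both arrays had 2. Among these 12 the distance between the higher and the lower probe had a median of 0.33 on the log2 scale, against 0.46 over the 215 miRNAs of the array that were detected on both arrays and had more than 1 probe. The 2 medians are not like for like. Every probe was detected on both arrays in 10 of the 12 but in 141 of the 216, and the 215 could have more than 2 probes. The distance was under 0.5 in 7 of the 12. The closest were miR-8103, at 0.09, and miR-8095, at 0.11, followed by miR-6368, at 0.14, and miR-8110, at 0.20.

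A distance over 1 was found in 3 of the 12, and in 71 of the 215, or 33.0%, on the array. miR-6418-5p had probes at 27.6 and 5.22 in replicate 1 and 21.5 and 4.43 in replicate 2, a distance of 2.58, which rests on a lower probe not above 3 times its error and so has no exact size. Over the 10 miRNAs with both probes detected on both arrays, the median distance was 0.23 and 2 exceeded 1. The probes of miR-8102 read 57.9 and 16.4 in replicate 1 and 64.3 and 18.8 in replicate 2, a distance of 1.81. For the brightest, miR-6366, the distance was 1.13. In each of the 3 it returned on the other array, with 2.49 in replicate 1 and 2.67 in replicate 2 for miR-6418-5p, 1.83 and 1.79 for miR-8102, and 1.13 and 1.14 for miR-6366.

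Not every probe of the detected miRNAs was itself detected. On each array 22 of the 24 probes of the 12 miRNAs were detected, and the other 2 were the lower probes of miR-6418-5p and miR-6402. The probes of miR-6402 read 14.02 and 8.37 in replicate 1 and 12.7 and 8.27 in replicate 2. Both probes were therefore detected on both arrays in 10 of the 12, and 141 of the 216 miRNAs of the array had every probe detected. The spots of the 24 probes had a median coefficient of variation of 12.5% in replicate 1 and 13.7% in replicate 2.

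**Figure D4:**
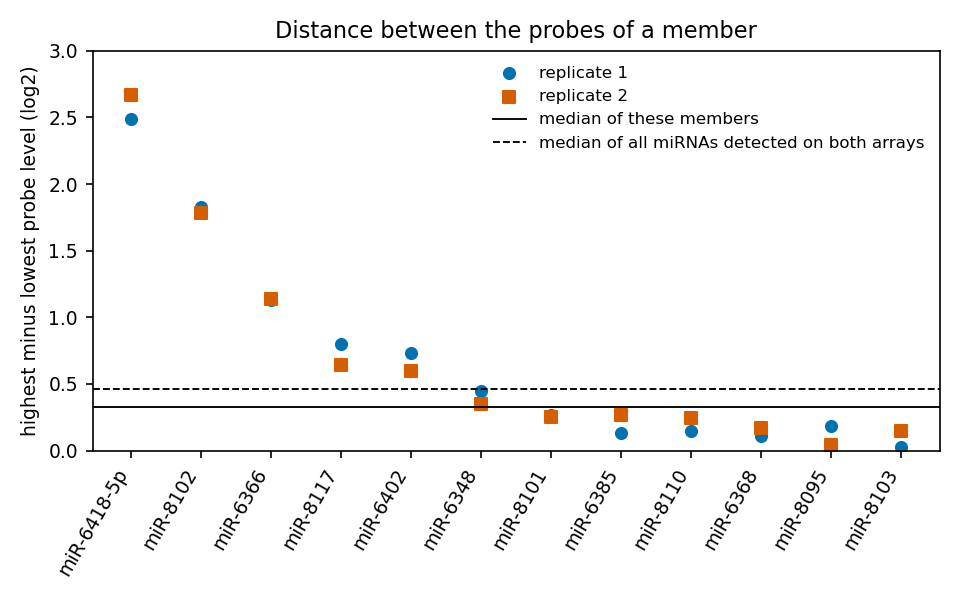
Distance between the higher and the lower probe of each of the 12 miRNAs detected on both arrays, in log2 units, for replicate 1 (circles) and replicate 2 (squares); lines give the median of the 12, 0.33, and of all miRNAs detected on both arrays, 0.46. miR-6418-5p, miR-8102 and miR-6366 lie above 1 on both arrays.

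Arms of a hairpin were measured apart in a few cases. miR-6418-5p was detected on both arrays, whereas the probes of miR-6418-3p read -1.15 and 1.16 in replicate 1 and -0.19 and 1.82 in replicate 2 and were not detected. Neither arm of miR-6392 or of miR-6416 was detected, their probes ranging from -3.32 to 2.74 over both arrays. By position, 4 of the 12 mature sequences lie in the 5′ part of their hairpin, and 44 of the 88 undetected ones with a sequence do.

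A seed of the bright miR-6368 is shared with 2 dark members, which is why their sequences are shown with it again, the seed in capitals.
miR-6368: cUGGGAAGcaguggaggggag
miR-6404: gUGGGAAGugacaagggguag
miR-6405: gUGGGAAGcagugggaagcagug

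miR-6404 lies at chr7:143933171-143933191 on the plus strand. miR-6405 lies at chr19:44808501-44808523 on the plus strand inside Pax2, a transcription factor gene, and it also has 13 bases in a row in common with miR-6368. The intensity of miR-6368 was 117.9 and 82.7, that of miR-6404 was 0.996 and 1.004 and that of miR-6405 was -0.65 and 0.25, in the order of the replicates. A common seed and a stretch of 13 equal bases therefore came with signal on the probes of miR-6368 and with none above error on those of miR-6405. Outside the 120, miR-3547-5p has this seed too and was detected on both arrays, at 15.2 and 5.36, and it has 10 bases in a row in common with miR-6366.

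Other likenesses of sequence went with detected and with undetected partners, and the pairs below are a selection. miR-6402 has its seed in common with miR-5626-3p, which was not detected, at -1.20 and -0.72. miR-8095 has 11 bases in a row in common with miR-7082-3p, which was detected at 20.3 and 19.8. miR-6418-5p has 10 in common with miR-3059-3p, undetected at 4.36 and 2.36, and 9 with miR-7036a-5p, which was brighter, at 156.0 and 221.1. miR-6348 has 11 in common with miR-7050-3p, undetected at 4.21 and 4.33, and miR-6385 has 11 in common with miR-7093-5p, undetected at -1.22 and -2.09.

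miR-8110 has an end unlike any other on the array. Its printed sequence closes with a run of 10 G, and no other of the 1608 miRNAs with a sequence has a run of 7 or more. miR-6923-5p and miR-6974-5p have 9 bases in a row in common with it, part of the run included, and were not detected, at 1.54 and 0.46 and at 4.54 and 1.52. Whether the run bears on the signal of miR-8110 was not tested.

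The detected members held more G than the dark ones. A sequence was matched by name for 104 of the 120 and for 1608 of the 1881. Not used here were sequences of miR-6336, miR-6355, miR-6356, miR-6357, miR-6358, miR-6359, miR-6360, miR-6361, miR-6378, miR-6388, miR-6395, miR-6400, miR-6407, miR-6417, miR-8097 and miR-8108. G made up a median of 45.5% of the bases in the 12 detected on both arrays, 46.3% in the 4 detected on 1 array and 28.6% in the 88 detected on neither. Over the array the medians were 35.4%, 43.5% and 25.0%, in the same order. The part of base composition in detection was not tested.

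Counted at a G share of at least 40%, 28 members passed and 8 of them were detected on both arrays, or 28.6%, against 24.1% of the 316 such miRNAs on the array. Below that share 4 of 76 were detected, or 5.26%, against 8.20% of 1292. A run of at least 4 G was found in 6 of the 12, in 1 of the 4 and in 9 of the 88, or 10.2%. On the array it was found in 24.7% of the 182 with a sequence that were detected on both arrays, in 9.14% of the 1390 detected on neither and in 11.3% of all 1608. Among the 12, the runs belong to miR-6366, miR-8110, miR-6368, miR-8102, miR-8117 and miR-6418-5p.

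Exceptions stood on both sides. miR-8103, with 9.52% G, miR-8095, with 22.7%, miR-6402, with 26.1%, and miR-6348, with 27.3%, were detected on both arrays. Of the 28 with much G, 16 were detected on neither. Among these, miR-8119 has 55% G and read 6.70 and 2.63, miR-6349 has 54.5% and read 1.24 and 0.46, and miR-8091 has 50% and read -1.17 and -1.49.

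**Figure D5:**
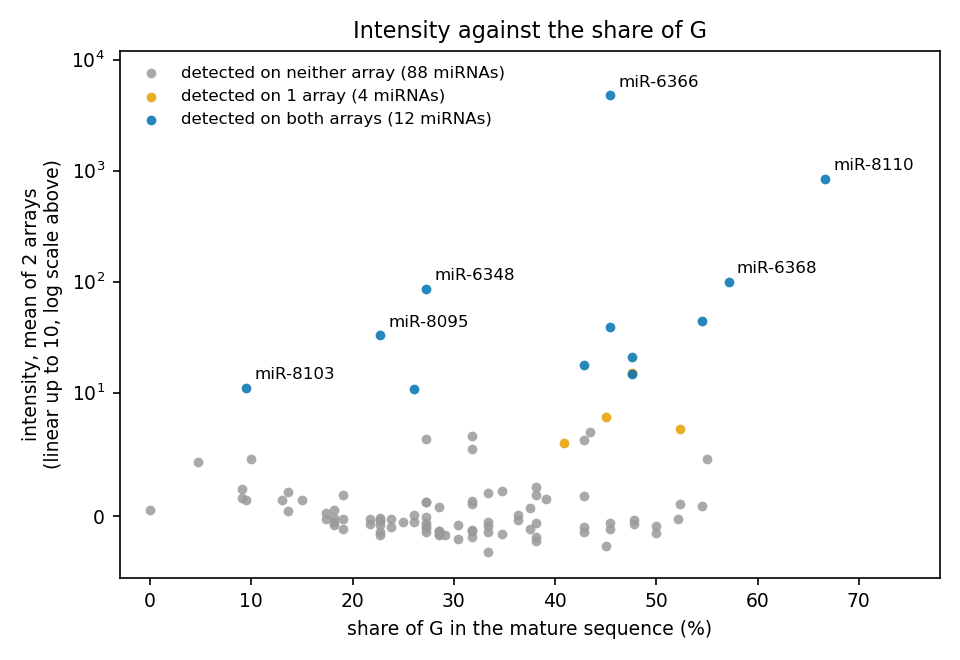
Intensity (mean of the 2 arrays, arbitrary units, linear up to 10 and logarithmic above) against the share of G in the mature sequence, in percent, for the 104 miRNAs with a sequence. miR-6366, miR-8110 and miR-6368 have over 40% G, miR-8103, miR-8095 and miR-6348 have less, and dark miRNAs are found from 0 to 55% G.

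The ranges also differed in composition, and its part in their detection was not tested. The median G share was 28.6% for the 75 sequences of miR-6335 to miR-6420 and 42.9% for the 29 of miR-8090 to miR-8120, against 26.3% over the array. At least 40% G was reached by 12 of the 75 and by 16 of the 29, the latter 55.2%, against 19.7% over the array. The later range also lay more often at gene starts. Its sequences overlapped a short window around a gene start in 6 of 29 cases, or 20.7%, those of the first range in 0 of 75, and those of the array in 3.30%. The 6 were miR-8101 at Hdac5, miR-8109 at Neto2, which encodes an auxiliary protein of kainate receptors, miR-8092 at Zfp518a, miR-8098 at Wdfy2, miR-8112 at Krcc1 and miR-8114 at Glul, the gene of glutamine synthetase. Of these miR-8101 was detected on both arrays, miR-8109 on 1 and the other 4 on neither. A place inside a coding gene was about as common among detected members, 6 of 12, as among dark ones, 48 of 88, and 67.3% of the miRNAs of the array lay in such a place.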

How the data were processed

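RNA of LLC-derived exosomes was measured on 2 one-colour arrays, 1 for each of 2 experiments. The authors deposited the scanner output of Feature Extraction (10.7.1.1 per the file headers, 9.1 per the labels), which gives a background-subtracted intensity for each spot, not normalized between arrays. They also deposited a log2 table of unstated making, whose columns hold the same sorted values with a median of -3.32; its scale and centring are unknown and it served as an alternative. Control and outlier spots (61 and 54 of 3600 spots of the 120 miRNAs) were left out. Signals were divided by the 75th percentile of the probes detected on both arrays, the log2 was taken with zero and negative signals raised to the smallest positive signal of the array, and spots and then probes were averaged. With 1 group of 2 arrays no test was made, and their number limits the precision. All miRNAs detected on an array are named, with the 5 highest undetected ones. The members and lists were chosen with earlier results of these data known. Sequences came from RefSeq (GRCm38.p6), by name. The computation was tested on simulated data. The simulated miRNAs were either dark or well above the call, with equal probes, so calls near the limit and probe agreement were not tested. Python 3.11.15, numpy 2.4.6, pandas 2.3.3, matplotlib 3.10.9, and R 4.3.3 with limma 3.58.1 (normexp, offset 50) were used. Alternatives changed the detection call, scaling, background, probe summary, filter and arrays used.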

Additional observations from a re-analysis of the deposited data

How the results depend on the processing

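Of 40 values computed under other settings, 22 stayed within the spread between the arrays, or within 1.5 times for counts, 14 moved farther and 4 turned sign. Some moves follow from the setting itself. Scaling sets the zero of the level of miR-6366, and the spread of the G share between the arrays was 0. The tally is thus no measure of robustness. The 12 members detected on both arrays were 28 when spots had to be positive and significant. With a replicate left out the count lay between 13 and 16 and could not be lower than 12. The level of miR-6366, 6.62, was 5.47 with normexp, 10.8 with the 75th percentile over all probes, 12.1 without scaling, 7.19 with the brighter probe, 6.25 with the total gene signal and 12.5 in the deposited log2 table, and between 6.54 and 6.71 with a replicate left out. The share of the 3 brightest, 93.2%, was 45.8% with normexp, whose offset of 50 is added to every dark spot, 93.8% with total gene signals and 97.3% in the deposited table, and between 93.0% and 93.5% on single arrays. The median difference between the arrays turned from 0.19 to -0.0068 with the percentile over all probes, -0.14 without scaling, -0.17 with total gene signals and -0.044 over all members. The median probe distance, 0.33, was 0.14 with normexp and 1.95 over all members, most of which lie at the floor, and between 0.31 and 0.35 on single arrays. The median G share of the detected members, 45.5%, was 43.5% under the positive and significant call and 47.6% under the well above background call, both chosen after seeing the data, and 45.5% on each single array. No paired analysis was possible because a single group was measured.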

Other observations

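The total that Feature Extraction gives for a miRNA was not always the sum of its detected probes. Of the 29 totals above the call for members, 23 equalled that sum within 1%. The other 6 exceeded it, miR-6402 by a factor of 4.33 in replicate 1 and 2.92 in replicate 2, miR-6418-5p by 3.20 and 2.72, miR-8105 by 2.69 and miR-8109 by 3.38 in replicate 1. Each of these 4 has a detected and an undetected probe, as does miR-6360 in replicate 2, whose total equalled the sum.

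In the log2 table that the authors deposited, 15 of the 120 were above its lowest value of -3.32 in both columns and 9 in 1 column. The 12 detected on both arrays by Feature Extraction were all above it in both. Of the 103 detected on neither array, 7 were above it in at least 1 column, at -2.23 to -2.20, namely miR-6351, miR-6354, miR-6378, miR-6388, miR-6391, miR-6392-3p and miR-6394.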
